A study of Homo sapiens with 12 samples.

Results

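The RNA levels of 10 genes of the IL6 family, interleukin 1 and colony-stimulating cytokines were followed in SW1783 cells, a human astrocytoma line, given a water extract made from the root of Aconitum carmichaeli Debeaux (ACD). The members were taken by name: the ligand genes IL6, LIF, IL11, IL1A, IL1B, CSF1 and CSF2, and the IL6 family signal chain genes IL6ST, STAT3 and SOCS3. All 10 were found among the 60675 genes of the count table, of which 30808 had at least 1 count. The 4 groups of 3 libraries were vehicle (PBS with 2% DMSO), a low (20 µg/mL), a medium (100 µg/mL) and a high (500 µg/mL) ACD dose, each for 24 h. Per the study's methods the extract was dissolved in PBS with 2% DMSO as well. That percentage is of the solution added, not of the medium on the cells. Total counts lay between 18863863 and 24200576 per library. The titles and treatment labels of the samples name ACD, whereas their treatment protocol is about a different herb, Poria cocos; the titles were followed. The line is a single tumour line, and nothing in the labels says that the replicates came from separate cultures, so the p-values measure the spread between these libraries, which may be technical.

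IL6, LIF and IL11 are secreted cytokines that bind a ligand-specific receptor together with gp130, the shared signalling receptor encoded by IL6ST. The receptor activates JAK kinases, which phosphorylate the transcription factor STAT3, and STAT3 in turn induces SOCS3, an inhibitor that closes the loop on gp130 and the JAKs. IL1A and IL1B encode the main agonists of the interleukin 1 receptor, CSF1 encodes a growth factor of macrophages and microglia, and CSF2 encodes GM-CSF, a growth and activation factor of myeloid cells. Astrocytes are a known source of several of these ligands in inflamed brain tissue.

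The stretches just before the start sites of the most strongly raised ligand genes (IL6, IL1A, CSF2) and of the ligand gene that fell (IL11) are shown, because NF-kB, AP-1 and STAT factors are known regulators of such genes. Each is 250 bases long, reads 5′ to 3′ on the strand of its gene, and ends on the base before the start site in RefSeq (GRCh38.p14). Capitals mark matches, on either strand, to motifs that under 10% of all promoter windows hold, a display rule set after the matches had been seen.
IL6, chr7:22726950-22727199, plus strand: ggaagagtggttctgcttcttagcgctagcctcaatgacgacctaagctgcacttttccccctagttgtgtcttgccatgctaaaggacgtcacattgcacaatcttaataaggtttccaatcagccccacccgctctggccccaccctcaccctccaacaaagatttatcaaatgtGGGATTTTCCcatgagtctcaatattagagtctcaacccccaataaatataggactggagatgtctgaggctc
IL1A, chr2:112784494-112784743, minus strand: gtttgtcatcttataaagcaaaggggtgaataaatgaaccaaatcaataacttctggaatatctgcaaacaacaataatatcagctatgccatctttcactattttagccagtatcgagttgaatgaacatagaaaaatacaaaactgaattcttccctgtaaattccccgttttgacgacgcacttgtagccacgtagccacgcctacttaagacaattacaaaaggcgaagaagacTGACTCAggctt
CSF2, chr5:132073539-132073788, plus strand: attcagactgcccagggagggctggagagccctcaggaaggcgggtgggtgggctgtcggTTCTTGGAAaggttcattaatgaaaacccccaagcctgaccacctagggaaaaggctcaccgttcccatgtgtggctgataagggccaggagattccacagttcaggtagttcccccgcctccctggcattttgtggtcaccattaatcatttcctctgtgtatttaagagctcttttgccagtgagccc
IL11, chr19:55370464-55370713, minus strand: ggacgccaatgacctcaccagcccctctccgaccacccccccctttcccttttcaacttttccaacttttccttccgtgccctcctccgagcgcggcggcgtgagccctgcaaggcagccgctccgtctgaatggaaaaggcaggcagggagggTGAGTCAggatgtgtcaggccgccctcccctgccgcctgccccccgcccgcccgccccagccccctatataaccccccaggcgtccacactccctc

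In these windows IL6 held a strict NF-kB motif (GGGA, any base, TT, any base, CC) from -73 to -64, counted from the start site, a motif found in 1.26% of the 35116 promoter windows of the same length. IL1A held the AP-1 motif TGANTCA from -12 to -6, and IL11, which moved the other way, held it from -96 to -90; 6.57% of all windows held it. The IL1A window shown belongs to the start site at the annotated start of the gene; RefSeq has another one 93 bases downstream, whose window held the same match and a further one from -55 to -49 of that site. CSF2 held the STAT motif TTCNNNGAA from -190 to -182, and IL1B held it from -180 to -172, against 6.57% of all windows. None of the members' windows held the cAMP response element TGACGTCA (1.65% of windows) or the ATF4 composite motif TGATGNAA (3.14%). A looser NF-kB motif (GGG, any 5 bases, CC), which contains the stricter form and overlaps it in IL6, was in 54.4% of windows, the C/EBP motif TTNNGNAA in 33.2% and the TATA box TATAAA in 10.7%. Windows were found for 8 of the 10 members, and a match describes letters, not binding.

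At the high dose 7 of the 10 genes were differentially expressed genes (DEGs; DESeq2 Wald test, Benjamini-Hochberg adjusted p under 0.05 over all genes tested, and a fold change over 1.5), against 18.2% of the 19453 genes tested. IL6, LIF, IL1A, IL1B and CSF2 rose (8.66% of genes tested were DEGs and higher), and IL11 and SOCS3 fell (9.57% lower). The members were chosen with earlier results of these data known, so the shares set beside them are a description, not a test. Against vehicle all 10 genes had an adjusted p under 0.05 at this dose, as did 46.5% of genes tested, and their libraries did not overlap: 6 were higher in each high dose library, a state of 30.6% of genes tested, and 4 were lower, a state of 29.9%. At the medium dose 3 of 10 members were DEGs, against 3.81% of the 14082 genes tested (2.34% higher and 1.48% lower). These were IL6, IL1A and IL1B, all higher, and no member was a DEG and lower. LIF was higher, and IL11, CSF1 and STAT3 were lower, by less than the fold threshold. With these, 7 members had an adjusted p under 0.05, against 29.5% of genes tested. At the low dose 0 members were DEGs (0.118% of the 9304 genes tested were DEGs, 0.0967% higher and 0.0215% lower). The edgeR quasi-likelihood test, with the same thresholds, called 7, 3 and 0 members at the high, medium and low dose, against 24.4%, 5.06% and 0.188% of 15983 genes. At the low dose LIF and STAT3 had an unadjusted p under 0.05, a limit for which the share of all genes was not counted. IL1A, IL1B and CSF2 lay under the mean count below which DESeq2 gives no adjusted p at that dose. The likelihood ratio test among the 4 groups had an adjusted p under 0.05 for 10 of 10 members and for 45.8% of all genes. The 3 dose comparisons share the same vehicle libraries.

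**Figure D1:**
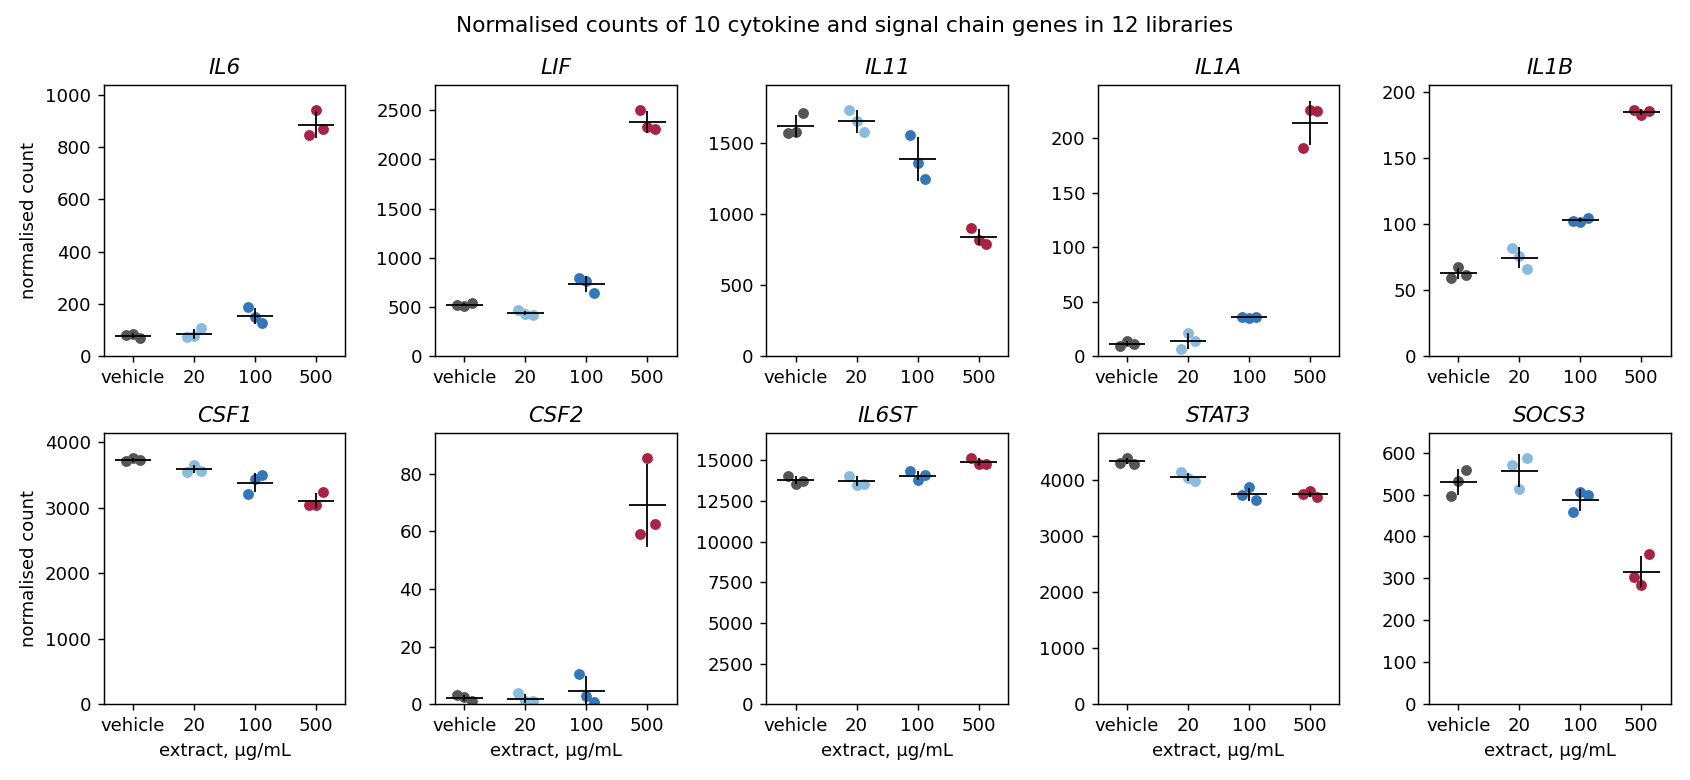
Normalised counts (counts divided by DESeq2 size factors, linear axes from 0) of the 10 genes by dose of extract. Points are single libraries, horizontal lines group means and vertical lines ± 1 SD (n = 3); the 3 high dose libraries of IL6, LIF, IL1A, IL1B and CSF2 lie above all 9 others, and those of IL11 and SOCS3 below all 9 others.

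IL6 (ENSG00000136244, chr7:22725884-22732002, plus strand, GRCh38) encodes interleukin 6, a cytokine that drives the acute phase response. It had 82.0, 85.9 and 69.7 normalised counts in the vehicle libraries and 72.1, 75.5 and 108 at the low dose. The medium dose gave 189, 148 and 125, and the high dose 846, 944 and 871. The vehicle and low dose libraries overlapped, every medium dose library lay above both, and the high dose libraries lay far above the rest. The rise over vehicle was 11.2-fold at the high dose (log2 fold change 3.48, SE 0.15, adjusted p in DESeq2 7.87e-118) and 1.93-fold at the medium dose (0.95, SE 0.162, adjusted p 7.76e-08). At the low dose the log2 fold change was 0.10 (SE 0.173, adjusted p 0.871). Ranked by log2 fold change at the high dose, IL6 stood at place 83 of 19453 genes. Genes annotated on the opposite strand, IL6-AS1 and STEAP1B, share 9.91% of its exon bases, and whether counting used the strand is not stated; IL6-AS1 held 8 to 25 counts per library and STEAP1B 10 to 23.

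LIF (ENSG00000128342, chr22:30240453-30246759, minus strand) encodes leukaemia inhibitory factor, which signals through LIFR and gp130. Its normalised counts were 519.5, 512 and 541 with vehicle, and they were lower in each low dose library at 465, 426 and 424. They were 796, 759.5 and 641 under the medium dose and 2506, 2333 and 2305 under the high dose. No library of any of these groups overlapped with another group. LIF rose 4.54-fold at the high dose (log2 fold change 2.18, SE 0.0731, adjusted p in DESeq2 9.68e-194). The medium dose ratio of 1.40 lay under the fold threshold (0.48, SE 0.0776, adjusted p 1.1e-08). At the low dose the log2 fold change was -0.26 (SE 0.0816), with an adjusted p of 0.0504, just short of the threshold. The antisense genes LIF-AS1 and LIF-AS2 share 4.37% of its exon bases; LIF-AS2 had a mean normalised count of 9.29 with vehicle and 30.6 at the high dose.

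IL11 (ENSG00000095752, chr19:55364382-55370463, minus strand) encodes interleukin 11, a gp130 ligand linked to fibrosis and bone turnover. It moved opposite to IL6 and LIF. Its normalised counts were 1569.8, 1579.6 and 1712 with vehicle and 1736, 1652 and 1576 at the low dose, overlapping each other. They were 1554, 1357 and 1249 at the medium dose, each below vehicle, and 901, 816 and 793 at the high dose. IL11 fell 1.94-fold at the high dose (log2 fold change -0.96, SE 0.0726, adjusted p in DESeq2 2.67e-38). The medium dose difference of -0.23 (SE 0.0703, adjusted p 0.00653) was under the fold threshold, and the low dose difference was 0.03 (SE 0.0698, adjusted p 0.907).

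Put on a common scale, normalised counts per kilobase of exon, the leading ligand among the 6 IL6 family ligands compared switched with dose. IL11 stood at 605 ± 29.7 per kilobase with vehicle and 312 ± 21.1 at the high dose (SD, n = 3), while LIF stood at 135 ± 3.95 and 615 ± 28.2 and IL6 at 18.3 ± 1.95 and 205 ± 11.8. Of the summed level of these 6 ligands (with CLCF1, CTF1 and CNTF), IL11 held 56.2% ± 1.08 with vehicle, 59.0% at the low dose, 50.5% under the medium dose and 22.4% ± 0.825 under the high dose. LIF held 12.6%, 10.8%, 18.5% and 44.1% in the same order, and IL6 held 1.71%, 1.89%, 3.46% and 14.7%. The level of IL11 over that of LIF was 4.37 to 4.57 across the vehicle libraries, 5.38 to 5.60 at the low dose, 2.58 to 2.82 across the medium dose libraries and 0.497 to 0.519 across the high dose libraries, with no overlap between groups. The summed level itself was 1076 ± 33.9 with vehicle, 1048 ± 33.4 and 1023 ± 79.4 at the low and medium doses, and 1395 ± 43.2 at the high dose. No test was run on these shares, and the exon length used joins all annotated transcripts of a gene.

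**Figure D2:**
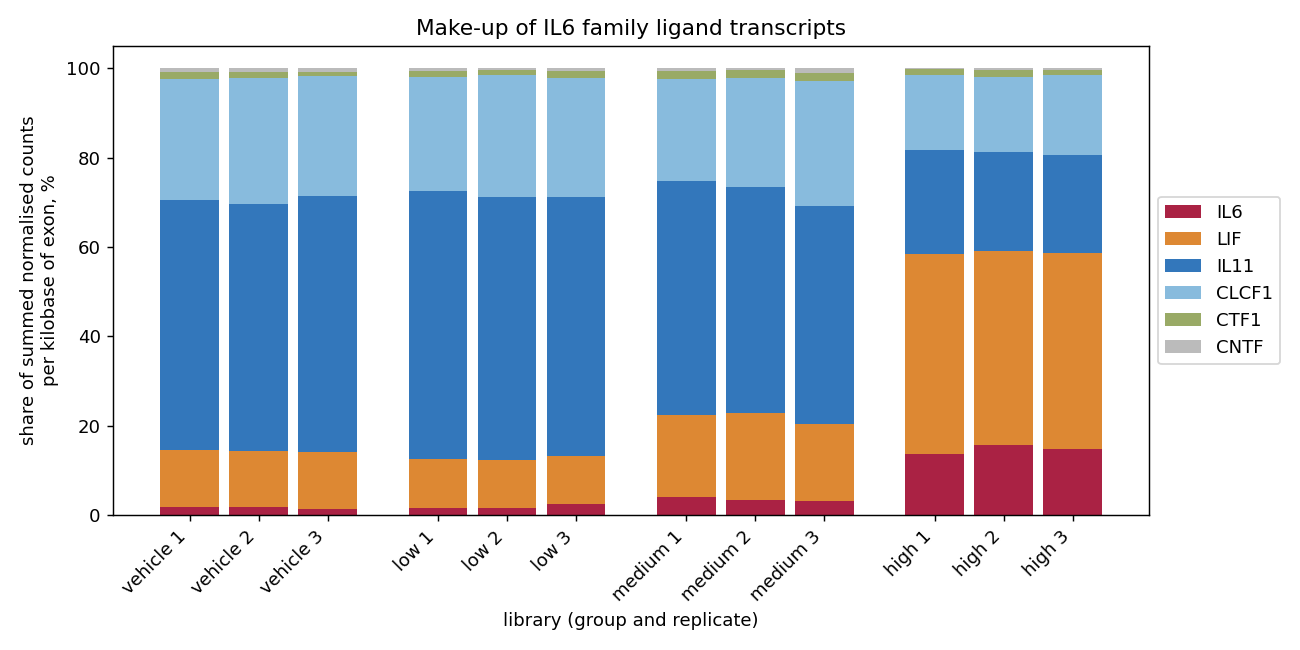
Share, in percent, of each of 6 IL6 family ligand genes in their summed normalised counts per kilobase of exon, 1 bar per library. IL11 held 55.3 to 57.4% in the vehicle libraries and 21.8 to 23.3% in the high dose libraries, and LIF 12.4 to 12.8% and 43.4 to 44.9%.

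IL1A (ENSG00000115008, chr2:112773925-112784493, minus strand) encodes interleukin 1 alpha, which acts from the cell surface and as an alarm signal from dying cells. It had 9.22, 14.0 and 11.4 normalised counts with vehicle and 6.73, 21.4 and 13.6 at the low dose, a wide and overlapping range. The medium dose libraries gave 35.9, 35.4 and 35.8, and the high dose ones 191, 226 and 224. Both higher doses were thus clear of vehicle and of each other. IL1A rose 18.4-fold at the high dose (log2 fold change 4.20, SE 0.310, adjusted p in DESeq2 1.49e-40) and 3.06-fold at the medium dose (1.61, SE 0.335, adjusted p 1.55e-05). The level with vehicle rested on 36 counts in all; the ratio of summed counts at the high dose was 18.4 with an exact 95% interval of 13.2 to 26.6, which covers counting error only. It stood at place 50 of 19453 genes at the high dose.

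IL1B (ENSG00000125538, chr2:112829751-112836816, minus strand) encodes interleukin 1 beta, which needs cleavage, usually by caspase 1, before it acts. Its normalised counts were 59.4, 67.5 and 61.4 with vehicle, 81.8, 75.5 and 65.9 at the low dose, 102, 102 and 105 under the medium dose, and 186, 182 and 185 under the high dose. The levels were ordered by dose, and only the vehicle and low dose libraries overlapped. IL1B rose 2.93-fold at the high dose (log2 fold change 1.55, SE 0.174, adjusted p in DESeq2 4.2e-18) and 1.63-fold at the medium dose (0.71, SE 0.182, adjusted p 0.000746). At the low dose its log2 fold change was 0.24 (SE 0.189, unadjusted p 0.198). Per kilobase, IL1A was 0.273 ± 0.0395 of IL1B with vehicle, 0.285 ± 0.152 at the low dose, 0.519 ± 0.00749 under the medium dose and 1.73 ± 0.176 under the high dose. By this measure IL1B was the higher in the first 3 groups and IL1A in the last. The ratio depends on the exon lengths used, 2017 bases for IL1A and 3009 for IL1B, which join all annotated transcripts. Not divided by length, the mean normalised counts at the high dose were 214 for IL1A and 185 for IL1B.

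CSF2 (ENSG00000164400, chr5:132073789-132076170, plus strand) was near the limit of detection without the extract. The vehicle libraries held 3, 3 and 1 counts, low dose libraries 4, 1 and 1, medium dose ones 9, 3 and 1, and the high dose libraries 51, 95 and 67. Only the high dose libraries were clear of the rest. The ratio of summed counts, corrected for library size, was 30.8 at the high dose with an exact 95% interval of 14.7 to 77.5 (log2 fold change 4.93, SE 0.682, adjusted p in DESeq2 3.26e-12). At the medium dose it was 1.91 (0.707 to 5.65; adjusted p 0.380), of which medium replicate 1 gave 9 of 13 counts; without that library the log2 fold change turned from 0.98 to -0.28. CSF2 stood at place 21 of 19453 genes at the high dose.

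CSF1 (ENSG00000184371, chr1:109910242-109930992, plus strand), the other colony-stimulating factor, was slightly lower with the extract. It had 3710.5, 3768 and 3734 normalised counts with vehicle, 3555, 3662 and 3567 at the low dose, 3217, 3445 and 3502 under the medium dose and 3041, 3042 and 3242 under the high dose. Each dosed library lay below each vehicle library, but the difference stayed under the fold threshold at every dose. The log2 fold change was -0.27 (SE 0.0387, adjusted p in DESeq2 4.23e-11) at the high dose, -0.14 (SE 0.0385, adjusted p 0.00169) at the medium dose and -0.06 (SE 0.0383, adjusted p 0.542) at the low dose. Per kilobase CSF1 was at 714 ± 5.53 with vehicle, against 2.85 ± 1.36 for CSF2, and at 593 ± 22.1 against 87.7 ± 18.3 at the high dose.

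None of the 3 signal chain genes of the IL6 family rose past the fold threshold. IL6ST (ENSG00000134352, chr5:55935095-55995022, minus strand), the gp130 receptor, had 14057, 13569 and 13708 normalised counts with vehicle and 15176, 14774 and 14798 at the high dose. Those high dose libraries lay above all others, yet the difference was small (log2 fold change 0.11, SE 0.0247, adjusted p in DESeq2 1.39e-05), and it was 0.0010 when libraries were scaled by their totals (adjusted p 0.978). At the medium dose the log2 fold change was 0.03 (SE 0.0248, adjusted p 0.383) and turned to -0.0802 (adjusted p 0.00326) under that scaling, and at the low dose it was -0.0063 (SE 0.0248, adjusted p 0.951). An unnamed gene on the opposite strand shares 6.61% of its exon bases.

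STAT3 (ENSG00000168610, chr17:42313324-42388540, minus strand) had 4313, 4402 and 4297 normalised counts with vehicle, 4139.8, 4047 and 3989.9 at the low dose, 3727, 3869.5 and 3649.5 under the medium dose and 3757, 3805 and 3700.2 under the high dose. Each dosed group lay below vehicle without overlap, and the medium and high dose libraries overlapped each other. The log2 fold change was -0.21 at the high dose (SE 0.0332, adjusted p in DESeq2 1.71e-09) and -0.21 at the medium dose (SE 0.0332, adjusted p 4.41e-09), under the fold threshold both times, and -0.10 at the low dose (SE 0.0330, adjusted p 0.0840). STAT3 is activated by phosphorylation, which RNA counts do not measure.

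SOCS3 (ENSG00000184557, chr17:78356778-78360077, minus strand), the feedback inhibitor that STAT3 is known to induce, had 497, 532 and 559 normalised counts with vehicle, 569, 514 and 588 at the low dose, 458, 506 and 498 under the medium dose and 303, 284 and 357 under the high dose. Vehicle overlapped with both lower doses, while each medium dose library lay below each low dose library, a difference short of the threshold (log2 fold change -0.19, SE 0.0937, adjusted p in DESeq2 0.154). The high dose libraries lay below all others. SOCS3 fell 1.68-fold at the high dose (log2 fold change -0.75, SE 0.0978, adjusted p in DESeq2 1.44e-13), while IL6 and LIF rose in the same libraries. Tested against the fold threshold itself, the adjusted p of SOCS3 was 0.771, so that its fall past that size did not pass. Its log2 fold change was -0.12 (SE 0.0938, adjusted p 0.383) at the medium dose and 0.07 (SE 0.0929, adjusted p 0.795) at the low dose.

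**Figure D3:**
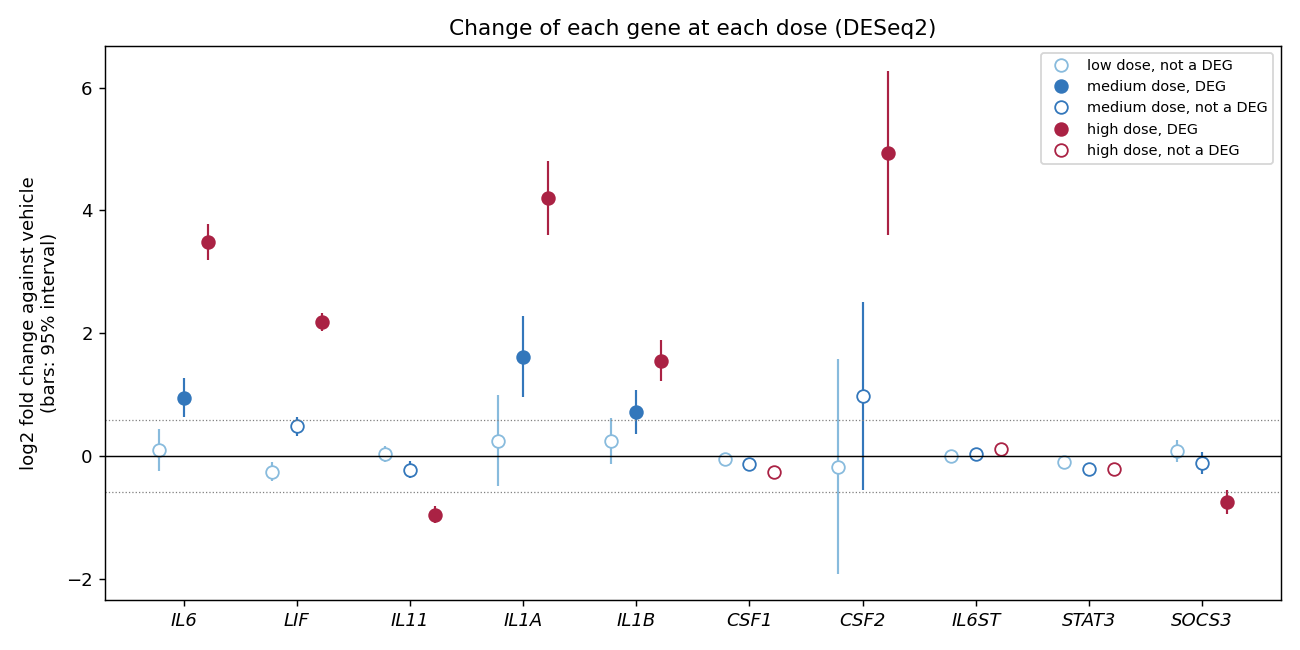
Log2 fold change of the 10 genes against vehicle at each dose (DESeq2), with 95% intervals as bars, filled points for DEGs and dotted lines at a fold change of 1.5 each way. The high dose points run from -0.96 for IL11 to 4.93 for CSF2, and no low dose point is filled.

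Whether the effect of a dose differed from that of the next was tested directly, since the vehicle cancels. From the medium to the high dose 7 members were DEGs, the same 5 higher and the same 2 lower as against vehicle (10.2% of 16467 genes tested, 4.58% higher and 5.61% lower; 12.7% by edgeR). The step was 5.79-fold for IL6 (log2 fold change 2.53, SE 0.136, adjusted p in DESeq2 8.87e-76) and 15.5-fold for CSF2 (3.96, SE 0.568, adjusted p 3.3e-11). For CSF2 the log2 fold change lay between 3.44 and 5.21 with a library left out, the highest without medium replicate 1. IL1A stepped up by 2.58 (SE 0.240, adjusted p 9.52e-26), LIF by 1.70 (SE 0.0708, adjusted p 1.33e-125) and IL1B by 0.84 (SE 0.162, adjusted p 1.16e-06) on the log2 scale. IL11 and SOCS3 fell, with log2 fold changes of -0.73 (SE 0.0732, adjusted p 4.53e-22) and -0.63 (SE 0.0985, adjusted p 1.23e-09); the SOCS3 call was lost to the fold threshold without high replicate 2 (-0.56). For STAT3 the medium and high doses differed by 0.00 (95% interval -0.0640 to 0.0677, adjusted p 0.974).

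From the low to the medium dose 3 members were DEGs, IL6, LIF and IL1A, all higher, and 0 were DEGs and lower. Of 14082 genes tested 1.94% were DEGs, 1.35% higher and 0.589% lower (2.67% by edgeR). IL1B was higher, and IL11 and STAT3 were lower, by less than the fold threshold. An adjusted p under 0.05, whatever the fold, was found for 6 members and 18.9% of genes tested. The log2 fold changes were 0.85 for IL6 (SE 0.161, adjusted p in DESeq2 2.77e-06), 0.74 for LIF (SE 0.0795, adjusted p 1.44e-18) and 1.37 for IL1A (SE 0.324, adjusted p 0.000325). The IL1A change had no adjusted p without low replicate 1 (1.02). From the low to the high dose 7 members were again DEGs, 5 higher and 2 lower (16.8% of 18856 genes tested, 7.93% higher and 8.85% lower; 21.8% by edgeR). The order of the levels was therefore vehicle and low dose together, then medium, then high for IL6 and IL1A; low, vehicle, medium, high for LIF, with the first pair short of the threshold; and high below the other groups for SOCS3. For IL1B the medium dose stood above the low dose by 0.46 (SE 0.179, adjusted p in DESeq2 0.0499), under the fold threshold, and for IL11 it stood below it by a log2 fold change of -0.26 (SE 0.0704, adjusted p 0.00252), under the threshold too. For CSF2 the 3 lower groups could not be ordered at this depth.

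Among the 7 receptors of the IL6 family, of which 6 had an adjusted p, 0 were DEGs at the high dose, against 18.2% of all genes tested. Their median log2 fold change was -0.11 over the 5 whose normalised counts averaged 10 or more, against 0.0023 over all 15282 such genes. IL6R, which binds IL6 before gp130 does, had 50.7 ± 5.62 normalised counts with vehicle and 40.9 ± 3.52 at the high dose (log2 fold change -0.31, SE 0.267, adjusted p in DESeq2 0.371). LIFR differed by -0.03 (SE 0.0434, adjusted p 0.678), OSMR, the receptor for oncostatin M, by -0.04 (SE 0.0328, adjusted p 0.306) and IL11RA by -0.40 (SE 0.126, adjusted p 0.00473), the last under the fold threshold. IL1R1, the signalling receptor for both interleukin 1 forms, fell from 1021 ± 15.9 to 653 ± 19.7 normalised counts (-0.64, SE 0.0620, adjusted p 3.49e-24), and its partner IL1RAP differed by 0.01 (SE 0.0446, adjusted p 0.840). CSF1R, the CSF1 receptor, fell from 68.0 ± 8.29 to 30.9 ± 3.36 (-1.14, SE 0.251, adjusted p 1.96e-05). The GM-CSF receptor genes CSF2RA and CSF2RB had at most 2 and 1 counts in any library, the decoy receptor gene IL1R2 and the antagonist gene IL1RN at most 1, and CSF3R 0 in every library.

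Among the other ligands, CSF3, which encodes the granulocyte factor G-CSF, rose 5.06-fold at the high dose (log2 fold change 2.34, SE 0.541, adjusted p in DESeq2 5.56e-05). It had 2.05, 5.26 and 11.4 normalised counts with vehicle and 34.7, 28.8 and 30.9 at the high dose, so the high dose libraries were clear of a scattered vehicle group. With a library left out its log2 fold change lay between 1.93 and 3.07, the highest without vehicle replicate 3, and the gene stayed a DEG. Of 14 listed colony-stimulating and related genes, 6 had an adjusted p. Among them CSF3 was the 1 DEG that was higher. The 2 DEGs that were lower were CSF1R and KIT, the stem cell factor receptor (-1.09, SE 0.0687, adjusted p in DESeq2 7.93e-55). KITLG went up from 2731 ± 84.6 normalised counts with vehicle to 3894 ± 121 at the high dose and was not a DEG. Over all genes tested 8.66% were DEGs and higher, and 9.57% lower. Of the 9 other IL6 family ligands, 6 had an adjusted p. IL12A, a subunit of interleukins 12 and 35, was a DEG and higher (1.75, SE 0.337, adjusted p in DESeq2 9.13e-07), and 0 were DEGs and lower. CLCF1, cardiotrophin-like cytokine factor, differed by -0.30 (SE 0.0799, adjusted p 0.000552), under the fold threshold. OSM had at most 2 counts in any library. Of the 9 other interleukin 1 family ligands, 6 had a count and only 2 an adjusted p. Of these genes 0 were DEGs, against 18.2% of all genes tested. IL18 went down from 16.4 ± 3.59 normalised counts with vehicle to 7.94 ± 3.56 at the high dose. IL33 stood at 0.29 (SE 0.166, adjusted p in DESeq2 0.147), and IL34, the second ligand of CSF1R, at 0.18 (SE 0.411, adjusted p 0.763).

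Of 29 listed genes known to be induced by STAT3, 22 had an adjusted p at the high dose. There 7 rose and 2 fell (8.66% and 9.57% of all genes tested), with a median log2 fold change of 0.12 over the 18 with a mean of at least 10. PIM1, a survival kinase, rose by 1.61 (SE 0.0980, adjusted p in DESeq2 2.71e-59), MYC, a growth regulator, by 1.60 (SE 0.0556, adjusted p 1.43e-180), and CEBPB, a transcription factor of the acute phase response, by 1.46 (SE 0.162, adjusted p 2.55e-18). PIM3, VEGFA, BCL6 and BCL2L1 also rose. FOS fell by 1.18 (SE 0.368, adjusted p 0.00366) and BCL3, an NF-kB cofactor, fell by 1.04 (SE 0.0750, adjusted p 4.93e-42). At the medium dose 17 of the 29 had an adjusted p. There 2 genes, CEBPB and MYC, were DEGs and higher and 0 were DEGs and lower (2.34% and 1.48% of all genes tested). These genes answer to other factors too, and the list is an account of known STAT3 targets in general, not in these cells. Opposite-strand genes share 12.6% of the exon bases of CEBPB and 41.3% of those of BCL2L1.

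At the high dose 25 JAK, STAT and inhibitor genes held 4 DEGs that were higher and 1 that was lower, with a median of 0.036. Over all genes tested 8.66% were DEGs and higher and 9.57% lower, 18.2% in all. The share of DEGs in this list was thus near that of all genes. STAT2, a mediator of interferon signals, rose by 1.05 (SE 0.0634, adjusted p in DESeq2 7.79e-60), JAK2, a kinase bound to gp130 and the GM-CSF receptor, by 0.69 (SE 0.0697, adjusted p 4.51e-22) and SOCS7 by 0.68 (SE 0.0525, adjusted p 2.25e-37). STAT5A also rose, and SOCS5 fell by 0.83 (SE 0.0559, adjusted p 1.42e-48). JAK2 and SOCS7 dropped under the fold threshold with library total scaling, at 0.58 and 0.57.

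The interleukin 1 receptor and processing list held 24 genes, of which 21 had an adjusted p at the high dose. It held 4 DEGs that were higher and 3 that were lower, with a median of 0.10, against 8.66% higher and 9.57% lower among all genes tested. IRAK2, a kinase of the receptor complex, rose 2.02-fold (log2 fold change 1.02, SE 0.0939, adjusted p in DESeq2 3.42e-26), TAB3, an adaptor of the kinase TAK1, rose by 0.76 (SE 0.0450, adjusted p 1.44e-62), and IL1RL1, the IL33 receptor, by 0.68 (SE 0.0477, adjusted p 1.05e-44; 0.57 and under the threshold with library total scaling). IL18R1 also rose. CASP1, the protease that cleaves the IL1B precursor, fell by 0.78 (SE 0.191, adjusted p 0.000157), and MYD88, the adaptor of the receptor, fell by 0.65 (SE 0.0658, adjusted p 8.33e-22), as did IL1R1 given with the receptors.

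Of 5 genes for surface proteases and their partners, 3 rose and 0 fell at the high dose (8.66% and 9.57% of all genes tested). ADAM17, which sheds IL6R and CSF1 among other proteins, went from 915 ± 29.0 normalised counts up to 2161 ± 8.0 (log2 fold change 1.24, SE 0.0508, adjusted p in DESeq2 7.75e-130; 3 genes on the other strand share 11.7% of its exon bases, of which IAH1 held a mean of 528 normalised counts with vehicle and 687 at the high dose). RHBDF2 and RHBDF1, the iRhom proteins that carry ADAM17 to the surface, rose by 0.90 (SE 0.0656, adjusted p 1.38e-41) and 0.76 (SE 0.0846, adjusted p 1.55e-18). At the low dose 0 genes of any of the 8 lists were DEGs, and at the medium dose CEBPB and MYC were the sole ones. Over all genes tested 0.118% were DEGs at the low and 3.81% at the medium dose, and many listed genes had no adjusted p there.

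**Figure D4:**
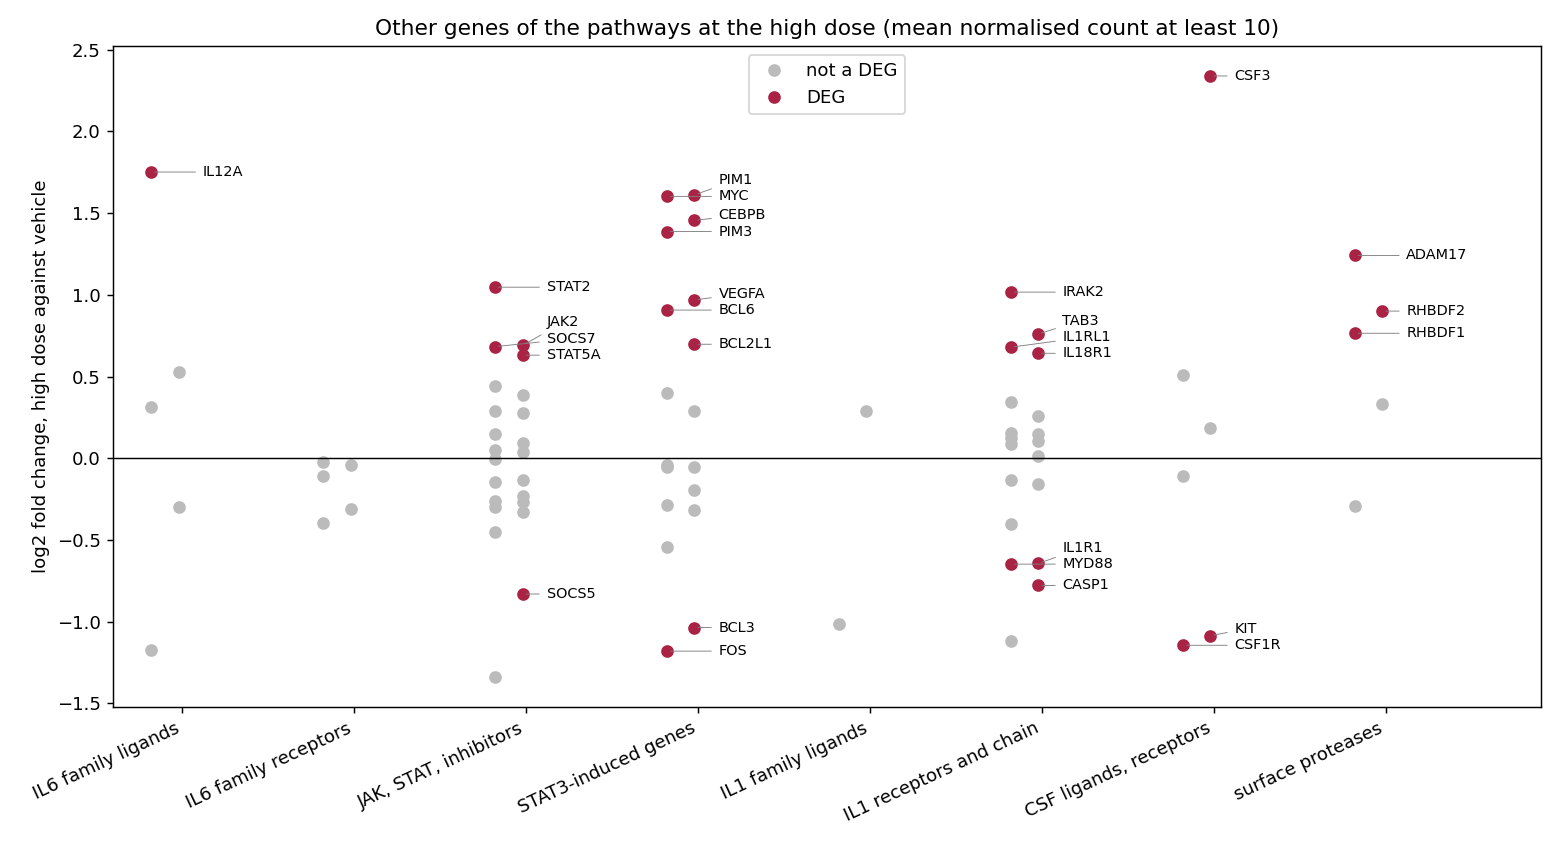
Log2 fold change at the high dose against vehicle (DESeq2) for genes of 8 pathway lists that averaged 10 or more normalised counts; DEGs are red and named, others grey, and the sideways offset within a list carries no value. CSF3 at 2.34 is the highest point, and no IL6 family receptor is red.

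Over the 12 libraries, the genes whose log2 levels ran most like each member's were listed among the 11264 genes whose normalised counts averaged 100 or more; the libraries share 4 dose groups, so such a correlation mostly follows the dose steps. For IL6 these were MAP1LC3B (Pearson r 0.995), RNF19B and USP32, for LIF MAFG (0.996), ELK4 and ZNF697, and for IL1B AHNAK2 (0.995), VAC14 and ECPAS. For IL11 they were BDKRB2 (0.990) and JPT1, for SOCS3 RAB15 (0.992), PCBP4 and H2AX, and for CSF1 SH3D19 (0.974), ARID2 and GRIA3. For IL6ST they were NPIPB5 (0.973), SIRT1 and RAB22A, and for STAT3 LSAMP (0.965), HS2ST1 and STC1. IL1A and CSF2 had means under 100 and were left out.

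The cells' identity was checked against marker genes. Of 11 astrocyte markers, VIM, CD44, GJA1 and SOX9 were high, with a lowest group mean of 1206 normalised counts (SOX9 at the high dose). Another 5 had at most 10 counts in every library. GFAP, S100B, ALDH1L1 and SLC1A2 had at most 6, 5, 2 and 9 counts and AQP4 had 0 in every library. SLC1A3, the glutamate transporter GLAST, and NES, the intermediate filament nestin, fell with dose, from group means of 690 with vehicle to 359 at the medium and 126 at the high dose and from 214 to 129 and 64.7. Of 9 microglia and macrophage markers, cells known to make interleukin 1, 6 had at most 10 counts in every library and TYROBP had 0. The summed level of these 9 was 3154 to 3320 normalised counts with vehicle, 3415 to 3449 and 3455 to 4029 at the low and medium doses, and 3949 to 4232 at the high dose, of which CD68, a lysosomal protein gene, held a mean of 2864 with vehicle and 3953 at the high dose. PTPRC, the general leukocyte marker, fell by 1.71 on the log2 scale (SE 0.151, adjusted p in DESeq2 1.6e-28). The summed level of 5 endothelial markers was 576 to 605 with vehicle and 617 to 675 at the high dose, of which KDR held a mean of 573 and 638. For 6 neuron markers the summed level was 1349 to 1405 and 1027 to 1099.9. Among the latter SNAP25 fell from a mean of 704 to 167, while SYT1 had 638 with vehicle and 868 at the high dose, under the fold threshold. The share of counts on mitochondrial rRNA was 0.912 to 0.960% with vehicle, 3.01 to 3.33% at the low dose, 7.67 to 8.05% under the medium dose and 5.76 to 6.06% at the high dose. The part of these shifts in the results was not tested. In bulk RNA, a change in the number of cells that express a gene and a change in RNA per cell cannot be told apart.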

How the data were processed

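RNA was sequenced from SW1783 cells in 4 groups of 3 libraries, grouped by the titles. Per the labels and the study's methods, the authors made strand-specific libraries, checked reads with FastQC 0.11.9, trimmed with Trim Galore (0.6.5 in the submitters' processing notes), aligned with STAR (2.7.3a in those notes; the methods name later versions of both) to GRCh38, and counted with RSEM 1.3.3. The deposited values are RSEM expected counts per gene, of which 8.75% were not whole, among them 33.3% of the IL6 values and 16.7% of the LIF values; 0 columns lacked a sample.

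The expected counts were rounded here. DESeq2 1.42.0 (R 4.3.3) was fitted once to the 12 libraries, group being its single term, with two-sided Wald tests, Benjamini-Hochberg adjustment over all genes and independent filtering tuned at 0.05. That filter left genes with mean normalised counts under 1.72, 18.3 and 263 without an adjusted p at the high, medium and low dose. A DEG had an adjusted p under 0.05 and a fold change over 1.5. The scripts were tested on simulated data. Names and positions came from GENCODE release 44, which named 93.2% of the gene IDs. Exact intervals and the depth of 18863863 to 24200576 counts cover counting error only.

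All 10 members and their receptors are named, with up to 3 DEGs each way per pathway list by size of change at the high dose, and the 3 genes most like each member (some genes are not reported here); CD68, PTPRC, SLC1A3, NES, SNAP25, SYT1 and further DEGs of the lists are named beyond that rule, after their values were seen. The members and lists were chosen with earlier results of these data known, and so was the filter level. Replicates differed by more than counting noise (chi-square per degree of freedom 2.06 to 3.77). Same-numbered libraries of the low and medium doses deviated together (r 0.124 to 0.193), though the labels state no pairing and the main fit has no term for it. The values were -0.0191 to 0.135 for low with high and 0.0355 to 0.221 for medium with high. Between vehicle and the doses they were -0.118 to -0.0069. Alternatives were edgeR 4.0.16, other size factors, filters and fold rules, 2-group fits, a replicate block and leaving out each library.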

Additional observations from a re-analysis of the deposited data

How the results depend on the processing

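Of the members' results under the alternatives, 911 kept their direction and side of the threshold, 14 lost a call, 15 gained one and 20 turned direction; of the other named genes' results at the high dose, 465 kept both, 12 lost a call, 2 gained one and 1 turned. The counts of members called at the high dose against vehicle and against the low dose stayed within 1.5 times the reported ones in every alternative run. Testing against the fold threshold itself left 0 of 3 calls at the medium dose against vehicle, 4 of 7 from medium to high and 0 of 3 from low to medium, and adjusted p alone gave 7 at the medium dose and 6 from low to medium (18.9% of genes tested). The former test also took away the high dose calls of SOCS3, IL1R1, CSF1R, JAK2, SOCS7, FOS, IL1RL1, CASP1, MYD88 and RHBDF1. The replicate block changed no member's call in any comparison (7 at the high dose, 3 at the medium, 0 at the low, and 3 from low to medium). The edgeR quasi-likelihood test called 7, 3 and 0 members at the high, medium and low dose.

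These results turned direction. With library totals, IL11 at the low dose was -0.0061 (log2 fold change), IL6ST -0.0802 at the medium dose and -0.0369 from low to medium, STAT3 -0.00035 from medium to high and IL1RAP -0.0995 at the high dose. That scaling moved the median of all genes by -0.11 at the high and the medium dose. STAT3 from medium to high was -0.0011 in the 2-group fit, -0.00095 in edgeR and -0.0178 to 0.026 with a library left out. Leaving out each library gave, at the low dose, -0.11 to 0.20 for IL6, -0.0052 to 0.072 for IL11, -0.22 to 0.59 for IL1A, -1.14 to 0.14 for CSF2 and -0.025 to 0.0082 for IL6ST; for CSF2 it gave -0.28 to 1.49 at the medium dose and -0.10 to 2.11 from low to medium. Without medium replicate 1, CSF2 was lower than vehicle at the medium dose and lower than the low dose (-0.10). SOCS3 from medium to high lost its call without high replicate 2, and IL1A from low to medium had no adjusted p without low replicate 1 or in the 2-group fit. The cause was not tested. Low counts of CSF2 and IL1A with vehicle limit the precision of their fold changes, and the low dose tests leave out genes under a mean of 263 counts.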
